A study of Mus musculus with 8 samples.

Results

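Tanycytes are elongated glial cells that line the floor and the lower side walls of the third ventricle of the hypothalamus. Their cell bodies touch the cerebrospinal fluid and a long process runs into the hypothalamic tissue, toward blood vessels and neurons. They are known for sensing nutrients, for moving hormones such as leptin between blood and cerebrospinal fluid, for thyroid hormone conversion, and for a capacity to form new cells in the adult brain. Ependymal cells, their ciliated neighbours, line the rest of the ventricular wall and move the fluid. Astrocytes are the star-shaped glia of the tissue behind it.

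The Tanycytes described here are the 649 cells that carry this name in the authors' annotation, out of 35672 cells in all (1.82%), beside 2461 Ependymal cells and 11866 Astrocytes. All come from the dissected paraventricular nucleus of the hypothalamus (PVN) of C57BL/6 mice, profiled as single cells in droplets. There were 8 libraries, 4 from females and 4 from males, with 1 library for every cohort and exposure of a sex. In the baseline cohort, at 10 weeks of age, unstressed controls stood beside mice given acute restraint stress (ARS) for 15 min. In the cohort of chronic mild stress (CMS), at 11 weeks, unstressed controls stood beside mice given 21 days of CMS and then the same restraint. Brains of restrained mice were collected 5 h later. Controls of the CMS cohort bear CMS in their titles but are labelled unstressed, and they were treated as unstressed. The number of animals in a library is not given in the labels, so p-values rest on the spread between these libraries. In the edgeR and limma tests this spread was shared over the annotated types, and it is not that of Tanycytes alone.

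The deposited table gives the type, depth and scores of each cell, and values of single genes were not analysed here. The Tanycyte markers Rax and Col23a1 could therefore not be used to check the name. All 649 Tanycytes lay in 1 cluster of the authors' clustering. The libraries held 3523 to 5777 cells and 9924892 to 15760435 UMIs (unique molecular identifiers, each standing for 1 captured RNA molecule). No barcode occurred more than once within a library. Across libraries, 27 Tanycytes (4.16%) shared their barcode with a cell of another library, as did 4.07% of all cells, and no barcode was a Tanycyte in more than 1 library. The female baseline ARS library stood apart with 220 Tanycytes, and differences in share and in the ratio to Ependymal cells are also given without it.

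Tanycytes were more frequent in the female libraries than in the male ones. They made up 2.30% (95% exact Clopper-Pearson interval 1.92 to 2.73) of cells in the female baseline control library, from 128 cells. In the female baseline ARS library the share was 3.81% (3.33 to 4.33). The female CMS control library had 1.46% (1.13 to 1.85), from 66 cells, and the female CMS ARS library 1.61% (1.28 to 1.99), from 80 cells. Every one of these values lay above those of the males.

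Among the male libraries, Tanycytes made up 0.813% (0.549 to 1.16) of cells in the baseline control, from 30 cells, and 1.10% (0.791 to 1.48) in the baseline ARS library, from 42 cells. The male CMS control library had 1.06% (0.757 to 1.44), from 40 cells, and the male CMS ARS library 1.22% (0.885 to 1.64), from 43 cells. The groups of the sexes did not overlap, although the intervals of single libraries, which cover counting error only, did in the CMS cohort. The mean share was 2.29% ± 1.07 (SD, n = 4) in females and 1.05% ± 0.171 in males.

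**Figure D1:**
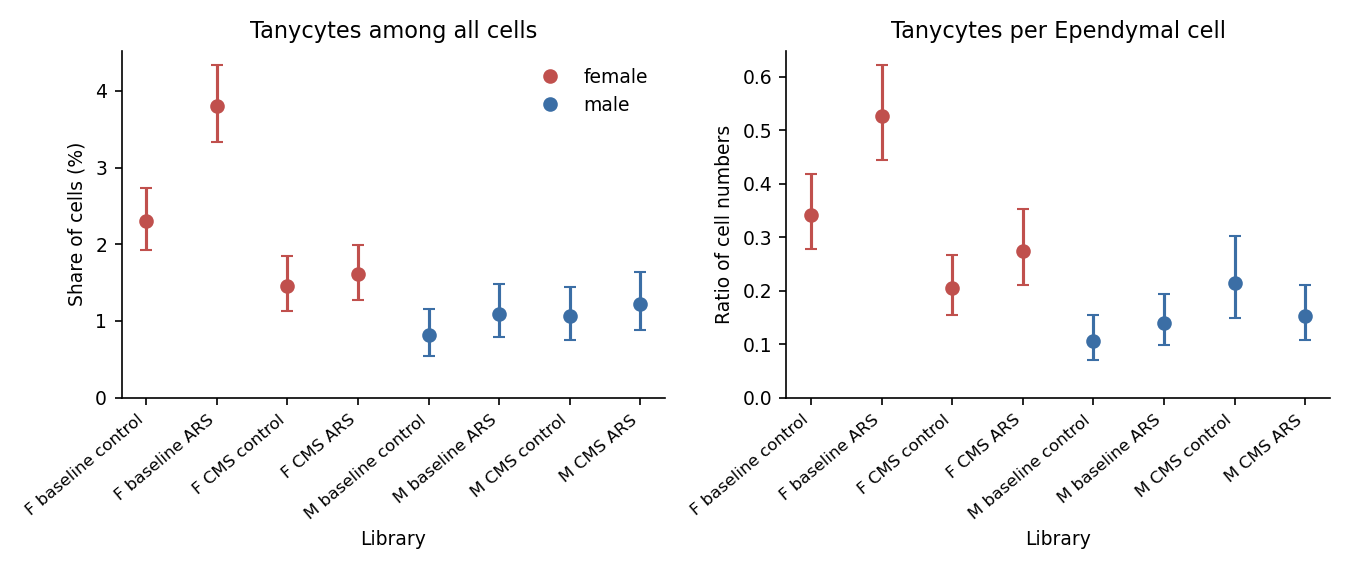
Left, Tanycytes as a percent of all cells of each library (F female, M male); right, Tanycytes per Ependymal cell. Points are single libraries and bars are 95% intervals of counting error; the female baseline ARS library is highest in both panels, at 3.81% and 0.526.

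With sex, cohort and exposure as terms, the female share was 2.08-fold the male share (95% interval 1.44 to 3.01; log2 1.06, SE 0.27). The edgeR quasi-likelihood test gave an adjusted p of 0.00322 over the 17 annotated types. Its estimate of spread was largely pooled over types, while the Tanycyte share had the second highest coefficient of variation of them over libraries. Tanycytes were the 1 type of 17 (5.88%) called for sex. The call was lost without the female baseline ARS library (log2 0.81, edgeR adjusted p = 0.234), without the male baseline control library (0.88, 0.165) and without the male baseline ARS library (0.87, 0.0937). It was also lost with the TMM normalization of edgeR (adjusted p = 0.141) and with DESeq2 (adjusted p = 0.102), with log2 values of 1.02 and 0.95.

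The female excess was large in the baseline cohort and small in the CMS cohort. Among baseline controls the female share was 2.83 times the male one (95% interval 1.91 to 4.21), and among baseline ARS mice 3.47 times (2.50 to 4.82). In the CMS cohort the ratio was 1.38 (0.933 to 2.04) for controls and 1.32 (0.911 to 1.90) for ARS. Read by cohort, both female shares were lower in the CMS than in the baseline library, 1.46% against 2.30% and 1.61% against 3.81%. Both male shares were higher, 1.06% against 0.813% and 1.22% against 1.10%, but by ratios whose intervals include 1, at 1.30 (0.813 to 2.09) and 1.11 (0.730 to 1.70). The female ratios were 0.633 (0.472 to 0.850) and 0.422 (0.327 to 0.543). The interaction of sex and cohort was -1.23 on the log2 scale (SE 0.42), with an edgeR adjusted p of 0.178 and an unadjusted p of 0.0105. Among the 17 types, 0 (0%) were called by edgeR, and 2 had an unadjusted p under 0.05. Without the female baseline ARS library the interaction was -0.98 (edgeR adjusted p = 0.495, unadjusted p = 0.0636). When only non-neuronal cells were counted, the interaction passed, at -1.40 with an edgeR adjusted p of 0.00709. The interaction of sex and cohort was asked because earlier results of these data had shown it. Its p-values are therefore no independent support.

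The mean Tanycyte share was 1.34% ± 0.244 (SD, n = 4) in the CMS libraries and 2.0% ± 1.36 in the baseline libraries. The fitted log2 difference of the cohorts was -0.42 (SE 0.27), with an edgeR adjusted p of 0.262, where 3 of 17 types (17.6%) were called. Leaving out the female baseline ARS library gave -0.16 (edgeR adjusted p = 0.612), and leaving out female CMS ARS gave -0.17 (edgeR adjusted p = 0.694). After stress, the share was 1.93% ± 1.27 against 1.41% ± 0.653 in controls. The log2 difference of 0.40 (SE 0.26) had an edgeR adjusted p of 0.944, and its 95% interval of the fold ran from 0.921 to 1.90; 0 of 17 types (0%) were called, and 0 had an unadjusted p under 0.05. The log2 difference after stress was 0.11 without the female baseline ARS library, 0.26 without male baseline control and 0.61 without female CMS ARS, with edgeR adjusted p of 0.909, 0.957 and 0.792. DESeq2 and limma also called 0 types, for exposure and for each of the interactions. The interactions of exposure with sex and with cohort were not called for Tanycytes either, and 0 of 17 types (0%) were called by edgeR in both, although 2 and 1 had an unadjusted p under 0.05.

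The spread of the share within a sex is given as a description, since its 4 libraries differ in cohort and exposure and the spreads of the sexes were not compared by a test. The SD of the 4 female shares was 1.07%, where counting error alone would give 0.212%, a ratio of 5.08. The SD of the 4 male shares was 0.171%, where counting error alone would give 0.167%, a ratio of 1.02. Without the female baseline ARS library the ratio for females was 2.38. Among the 17 types, Tanycytes had the second highest coefficient of variation of the share over libraries, 58.4%, against 15.2% for Ependymal cells and 14.7% for Astrocytes.

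The number of cells per library moved with sex, since each female library (4528 to 5777 cells) held more cells than any male library (3523 to 3831). Within the females, the Tanycyte share followed the number of cells in order, from 1.46% at 4528 cells through 1.61% at 4981 and 2.30% at 5559 to 3.81% at 5777. Within the males the smallest library, with 3523 cells, had the highest share, 1.22%, and the other 3 followed the order, with 0.813% at 3692 cells, 1.06% at 3781 and 1.10% at 3831. With 4 libraries of a sex no correlation was computed, and sex and cell number cannot be told apart here. The Tanycyte share had no clear relation over the 8 libraries to the Ependymal share (Pearson r = 0.017, adjusted permutation p = 0.968; Spearman rho = -0.19, adjusted permutation p = 0.977). Without the female CMS ARS and male CMS control libraries, farthest from the median, r was -0.56 (exact permutation p = 0.256). For the Astrocyte share r was -0.16 (adjusted permutation p = 0.968) and rho 0.024 (adjusted permutation p = 0.977), and r was 0.15 (exact permutation p = 0.724) without the same libraries. Values were adjusted over 3 relations, the third being that with cell number, which is not given because the sexes form separate clusters in it.

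Counted against Ependymal cells, which share the ventricular wall, Tanycytes again stood higher in most female libraries. The female baseline control library had 0.341 Tanycytes per Ependymal cell (95% interval 0.277 to 0.418), and the female baseline ARS library 0.526 (0.445 to 0.621). The female CMS libraries had 0.204 (0.154 to 0.267) in controls and 0.274 (0.211 to 0.352) after ARS. The 2 female baseline ratios were the highest of the 8.

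In males the ratio was 0.106 (0.0700 to 0.154) in the baseline control and 0.140 (0.0992 to 0.194) in the baseline ARS library. It was 0.214 (0.148 to 0.302) in the male CMS control and 0.152 (0.108 to 0.210) in the male CMS ARS library. The sexes overlapped, since the male CMS control ratio lay above the female CMS control ratio. That library also had the lowest Ependymal share, 4.95%, against 5.86% to 8.03% in the others. Ependymal cells themselves made up 6.74% ± 0.625 (SD, n = 4) of female and 7.12% ± 1.46 of male cells.

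The mean ratio was 0.336 ± 0.138 (SD, n = 4) in females and 0.153 ± 0.0451 in males, and the mean over matched pairs was 2.14-fold. It was higher in the female library of 3 of 4 pairs, with an exact two-sided sign-flip permutation p of 0.25, where 4 pairs allow no p under 0.125. With the number of Ependymal cells as library size, edgeR gave a log2 difference of 1.10 and an adjusted p of 0.0142. That fit takes the Ependymal number as known and does not model its counting error. Without the female baseline ARS library and its pair, the mean log2 difference was 0.83, against 1.10 with them (exact permutation p = 0.5). The female-to-male ratio of these ratios was 3.48 on average in the baseline pairs and 1.31 in the CMS pairs.

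For exposure, the ratio was 0.273 ± 0.179 (SD, n = 4) in stressed and 0.216 ± 0.0967 in control libraries. It was higher after stress in 3 of 4 pairs, by 1.54, 1.34 and 1.33 times, and lower in male CMS mice, at 0.710 times (95% interval 0.445 to 1.13); the exact permutation p was 0.5. The mean log2 difference was 0.24, and 0.11 without the female baseline ARS library and its pair (exact permutation p = 1). In the male CMS pair the Ependymal share was 1.62 times as high after stress (1.36 to 1.94). For the cohorts, the ratio was 0.211 ± 0.05 in CMS and 0.278 ± 0.195 in baseline libraries, with an exact permutation p of 1. The mean log2 difference was -0.14, and 0.13 without the female baseline ARS library and its pair (exact permutation p = 0.75). In females the CMS ratio was 0.204 against 0.341 in controls and 0.274 against 0.526 after ARS, whereas in males it was 0.214 against 0.106 and 0.152 against 0.140. The last of these, a ratio of 1.08, had an interval of 0.686 to 1.71. This opposite order was not tested by permutation; with the number of Ependymal cells as library size the edgeR interaction was -1.43 with an adjusted p of 0.233.

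In depth, Tanycytes were number 8 of the 17 types. Their median was 3385 UMIs and 1705 genes per cell, and the middle of the distribution ran from 2455 to 4858 UMIs between the quartiles. They held a larger share of the UMIs of each library than of its cells, from 0.973% in the male baseline control to 5.76% in the female baseline ARS library. Of the 649 cells, 35 (5.39%) had under 1000 UMIs, against 8.37% of Ependymal cells and 34.4% of Astrocytes. The Ependymal value came mostly from the smaller of 2 Ependymal clusters (294 cells), with 69.0% under 1000 UMIs. In the larger cluster (2167 cells) it was 0.138%, below that of Tanycytes.

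Library medians of Tanycytes were 3638.5 and 3792.5 UMIs in the female baseline control and ARS libraries, and 2819.5 and 3019.5 in the corresponding female CMS libraries. In males they were 2861 and 3649 in the baseline, and 3501 and 2630 in the CMS libraries. All 8 lay above every Astrocyte median, which ran from 1090.5 to 1499. They were interleaved with the Ependymal medians of 3157 to 4260.

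Over the 8 libraries the Tanycyte median was 2.49 times that of Astrocytes (higher in 8 of 8 libraries), with an exact sign-flip permutation p of 0.00781, the smallest that 8 libraries allow, and 0.00938 after adjustment over 12 comparisons. Against Ependymal cells it was 0.903 times (higher in 2 of 8 libraries), with an adjusted exact p of 0.0781. Genes per cell were lower than in Ependymal cells in 8 of 8 libraries, at 0.878 times (adjusted exact p = 0.00938), and 2.25 times those of Astrocytes. Among cells of 2000 to 6000 UMIs, genes were 1.32 times those of Astrocytes, with UMIs also 1.32 times. At like depth, Tanycytes had fewer genes than Ependymal cells in each group of cells from 2000 UMIs upward. Between 3000 and 4000 UMIs the median Tanycyte had 1735 genes, the median Ependymal cell 1840 and the median Astrocyte 1580. Between 5000 and 6000 UMIs the Tanycyte and Ependymal medians were 2279 and 2526. Between 1000 and 2000 UMIs Tanycytes had more genes than Ependymal cells, 998 against 943. The Ependymal label holds 2 clusters, of which the smaller (294 cells) had a median of 799.5 UMIs; against the larger cluster alone the difference in UMIs passed, at -0.22 on the log2 scale with an adjusted exact p of 0.0188, an alternative chosen after the data were seen.

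**Figure D2:**
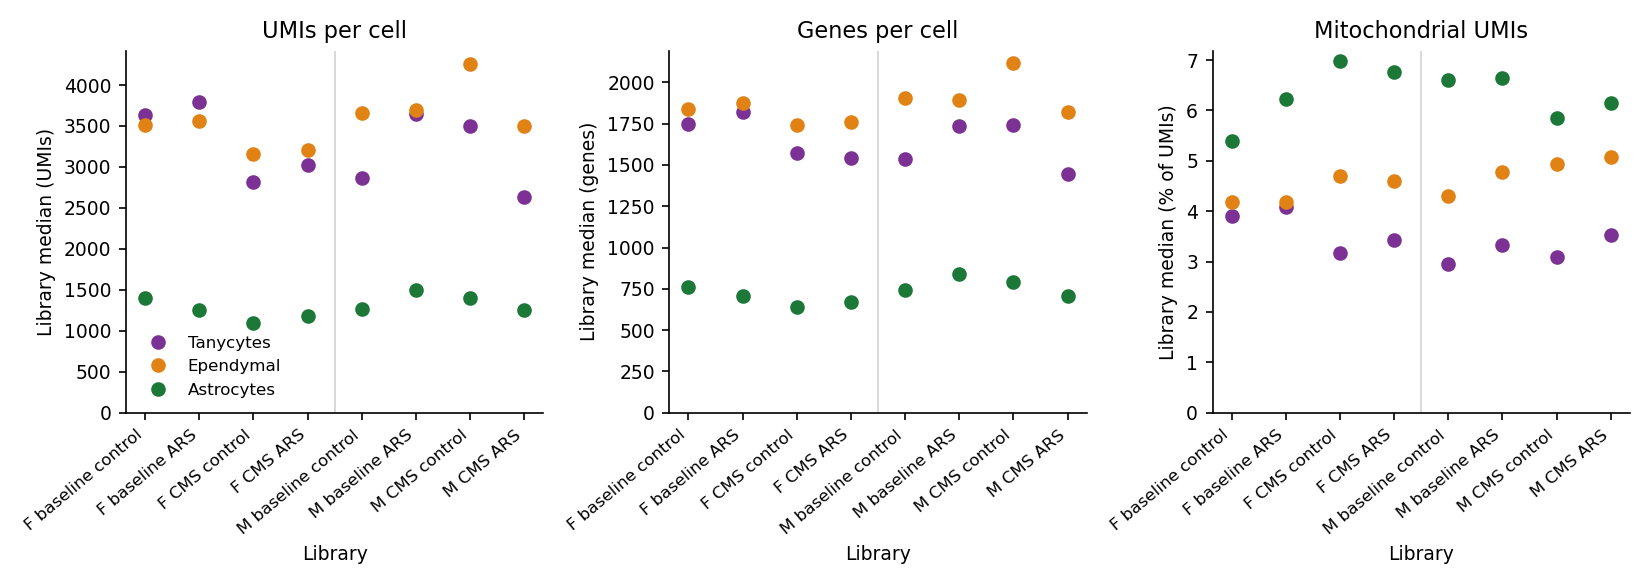
Library medians of UMIs, of detected genes and of mitochondrial percent per cell for Tanycytes, Ependymal cells and Astrocytes, 1 point per library and type, with females left of the grey line. Tanycytes have the lowest mitochondrial median of the 3 types in each library and fewer genes than Ependymal cells in each.

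Mitochondrial UMIs took a smaller part of Tanycyte profiles than of either other type. The library medians of Tanycytes were 3.91% and 4.09% in the female baseline control and ARS libraries and 3.18% and 3.43% in the female CMS libraries. In males they were 2.95% and 3.34% in the baseline and 3.09% and 3.53% in the CMS libraries. Ependymal medians ran from 4.18% to 5.07% and Astrocyte medians from 5.38% to 6.98%, so that the 3 types did not overlap.

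Tanycytes minus Ependymal cells gave -1.16 percentage points on average (SD 0.63), and Tanycytes minus Astrocytes gave -2.89 (SD 0.796). Tanycytes were lower in 8 of 8 libraries in both (adjusted exact p = 0.00938). The gap to Ependymal cells was narrowest in the female baseline ARS library, at -0.0961 points. Among cells of 2000 to 6000 UMIs the mean gap to Astrocytes was smaller, at -1.62 points (adjusted exact p = 0.0104). To Ependymal cells it was -0.979 points there, with Tanycytes higher in 1 of 8 libraries (adjusted exact p = 0.0170). Of the 649 Tanycytes, 16 (2.47%) had over 10% mitochondrial UMIs, against 7.44% of Ependymal cells and 17.7% of Astrocytes. Within the Ependymal label, this was 3.14% of the larger cluster and 39.1% of the smaller, shallow one.

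The relation of depth and mitochondrial share over cells is given as a description. Across the 649 Tanycytes, Spearman's rho between UMIs and mitochondrial percent was 0.27, against -0.16 in Ependymal cells and -0.34 in Astrocytes. Within libraries it was positive in 7 of 8 for Tanycytes, from 0.092 to 0.61, and -0.23 in the male CMS control library, where that of Ependymal cells was -0.16. It was negative in 8 of 8 libraries for Ependymal cells (-0.24 to -0.059) and for Astrocytes (-0.37 to -0.31). These are descriptions over cells, whose mitochondrial share has the UMIs as its denominator. Over libraries, deep minus shallow Tanycytes against the same in Ependymal cells differed by 0.763 points (adjusted exact permutation p = 0.0703), which did not pass. By depth, with the cells of all libraries pooled, the Tanycyte median was 3.24% between 2000 and 3000 UMIs and 4.50% between 5000 and 6000. The Ependymal medians there were 4.75% and 4.30%. Among cells of at least 4000 UMIs, Tanycytes were above Ependymal cells in both female baseline libraries (4.88% against 4.08% in ARS) and in male CMS ARS. They were below them in every other library, as in female CMS control (3.04% against 4.60%).

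**Figure D3:**
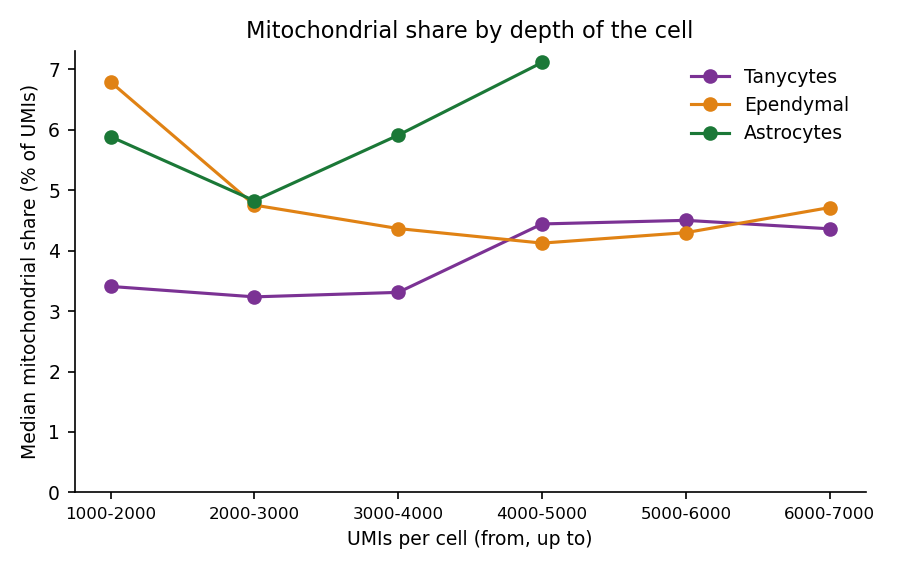
Median mitochondrial percent of cells grouped by their UMIs, for all libraries together; groups with under 20 cells are not drawn. In these pooled cells, Tanycytes lie below Ependymal cells up to 4000 UMIs (3.31% against 4.37% in the group from 3000). They lie slightly above them from 4000 to 6000, although by library deep Tanycytes were above only in the female baseline and male CMS ARS libraries.

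Neither the depth nor the mitochondrial share of Tanycytes passed the test between the study's groups. Between cohorts, the log2 median UMIs of Tanycytes differed by -0.22 (SE 0.12), with a limma adjusted p of 0.238 over 16 types, 3 of which (18.8%) were called. The difference passed without the male baseline control library (-0.33, limma adjusted p = 0.0227), where 5 of 16 types were called. It also passed without the male CMS control library (-0.36, limma adjusted p = 0.0167). There, 2 of 16 types were called and 9 had an unadjusted p under 0.05. The mitochondrial median differed by -0.27 points (SE 0.20, limma adjusted p = 0.31; 3 of 16 types called, 18.8%). Taken relative to Ependymal cells of the same library, the mitochondrial difference was -0.73 points with a limma adjusted p of 0.033. In that fit 9 of 15 types were called, so the pass was not particular to Tanycytes. For stress and for sex, 0 of 16 types (0%) were called by limma in both measures, and 1 had an unadjusted p under 0.05 in each. For Tanycytes, the sex difference was 0.072 (SE 0.12) in log2 UMIs and 0.43 points (SE 0.20) in mitochondrial percent.

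S and G2/M scores, by their names, summarise in each cell the genes of DNA replication and of the approach to and passage through mitosis. Tanycytes had the second highest mean S score of the 17 types, after the oligodendrocyte precursors (OPC), and the second highest mean G2/M score, after Ependymal cells. The means over cells were 0.0128 for S and 0.0177 for G2/M. High values were rare, with 24 Tanycytes (3.70%) above 0.1 in S, 28 (4.31%) above 0.1 in G2/M and 1 above 0.1 in both. Both scores were positive in 219 Tanycytes and neither in 102, and no cell was called cycling from them.

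The mean S score of Tanycytes in females was 0.0149 in the baseline control, 0.0148 in the baseline ARS, 0.00284 in the CMS control and 0.0107 in the CMS ARS library. In males it was 0.0175 and 0.0207 in the baseline and 0.00754 and 0.00922 in the CMS libraries. Every Tanycyte mean was above the Ependymal and the Astrocyte mean of its library. The difference averaged 0.0135 (SD 0.00528) from Ependymal cells and 0.0162 (SD 0.00564) from Astrocytes, both with an adjusted exact p of 0.00938 (n = 8 libraries).

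The mean G2/M score of Tanycytes in females was 0.0177 and 0.0191 in the baseline and 0.0337 and 0.0151 in the CMS libraries, controls first. In males it was 0.0155 and 0.0126 in the baseline and 0.00252 and 0.0111 in the CMS libraries. The Ependymal means, 0.0463 to 0.0558, were all higher, and the Astrocyte means, -0.015 to -0.0106, were all lower. Tanycytes minus Ependymal cells gave -0.0359 on average and Tanycytes minus Astrocytes 0.0276, with the same sign in 8 of 8 libraries each (adjusted exact p = 0.00938).

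**Figure D4:**
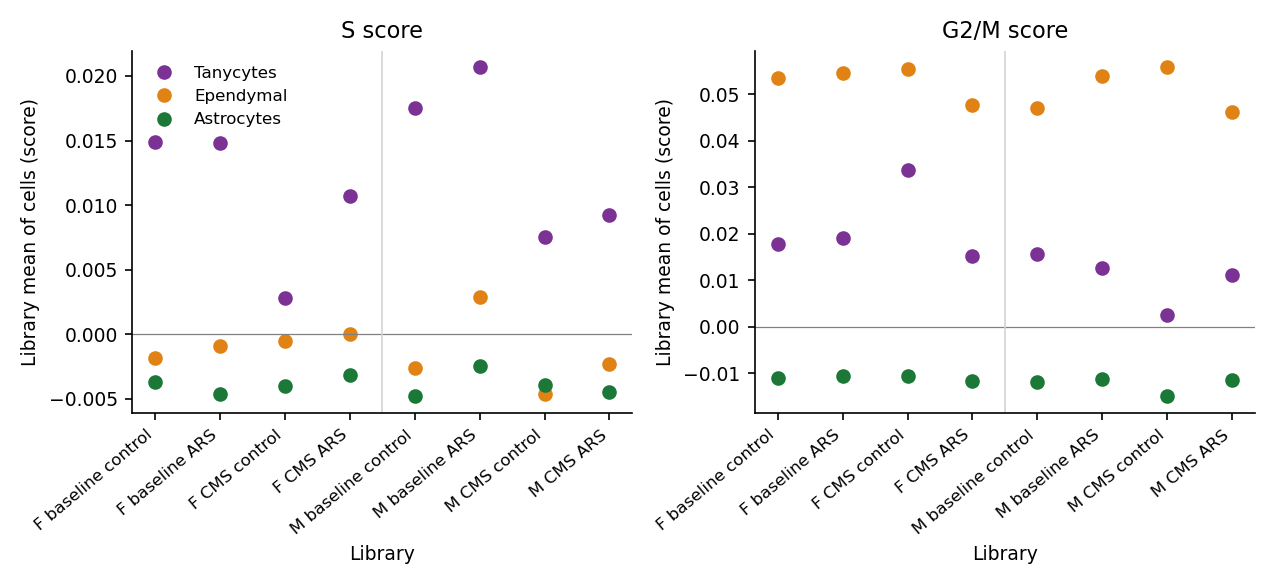
Mean S score (left) and mean G2/M score (right) of Tanycytes, Ependymal cells and Astrocytes in each library, with females left of the grey line. In S the Tanycyte means are the highest of the 3 types in each library and the 4 baseline values (0.0148 to 0.0207) lie above the 4 CMS values (0.00284 to 0.0107).

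Between cohorts, the S score of Tanycytes was lower in CMS, with means of 0.00759 ± 0.00342 (SD, n = 4) against 0.017 ± 0.00278 in the baseline libraries, and the groups did not overlap. The difference was -0.00938 (SE 0.00165) with a limma adjusted p of 0.0254, and Tanycytes were the 1 type of 16 (6.25%) called. Age, and chronic stress in the stressed mice, differ with the cohort and cannot be told apart from it. The call held without the female baseline ARS library (limma adjusted p = 0.0279) and without the female CMS ARS library (0.00719), and was lost without any 1 of the other 6 (limma adjusted p from 0.109 to 0.134). It was lost relative to Ependymal cells (-0.00818, limma adjusted p = 0.115). Among cells of 2000 to 6000 UMIs, an alternative chosen after the data were seen, the difference was -0.0119 (limma adjusted p = 0.0121).

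The S score of Tanycytes did not pass for stress (0.00317, SE 0.00165, limma adjusted p = 0.286) or sex (-0.00292, SE 0.00165, 0.471), where limma called 0 of 16 types (0%) in both; at an unadjusted p under 0.05 it found 1 and 0. The G2/M score was 0.0214 ± 0.00833 (SD, n = 4) in female and 0.0104 ± 0.00559 in male libraries. The difference of 0.011 (SE 0.00511) had a limma adjusted p of 0.183, where 4 of 16 types (25.0%) were called. It was 0.0054 without the female CMS control library and 0.00644 without the male CMS control library (limma adjusted p = 0.258 and 0.398). For stress and cohort, 0 of 16 types (0%) were called by limma in G2/M, and 1 had an unadjusted p under 0.05 in each.

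The deposited doublet score, meant to flag droplets with more than 1 cell, split the Tanycytes into separate sets. It was 0 in 211 cells (32.5%) and at least 1.41 in the other 438, with none in between. Such a gap was not particular to Tanycytes: 30.8% of Astrocytes were at 0 and the lowest other value was 0.892, and 18.1% of Ependymal cells were at 0 and the lowest other value was 0.479. By Ependymal cluster, 7.29% of the larger and 97.6% of the smaller were at 0. The sets differed in depth, with medians of 2025 and 4098 UMIs, and 49.3% against 0.913% of their cells were under 2000 UMIs. The library means of the score ran from 1.15 in male CMS ARS to 1.82 in male CMS control mice. They exceeded the Ependymal means in 7 of 8 libraries, by 0.487 on average (adjusted exact p = 0.017), and were below the Astrocyte means in 8 of 8, with a mean difference of -0.192 (adjusted exact p = 0.00938).

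Tanycytes with a score of 0 made up 0.666%, 0.935%, 0.596% and 0.562% of all cells in the female baseline control, baseline ARS, CMS control and CMS ARS libraries. In males these shares were 0.379%, 0.365%, 0.37% and 0.653% in the same order. The sexes overlapped in this set through the male CMS ARS library, with means of 0.69% ± 0.169 (SD, n = 4) and 0.442% ± 0.141.

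Tanycytes with a score above 0 made up 1.64%, 2.87%, 0.861% and 1.04% of cells in the females and 0.433%, 0.731%, 0.688% and 0.568% in the males. The sexes did not overlap here, with means of 1.60% ± 0.909 (SD, n = 4) and 0.605% ± 0.134. When cells of every type with a score above 1 were left out, the sex difference in the Tanycyte share was 0.60 on the log2 scale, with an edgeR adjusted p of 0.118. The cohort difference in the S score was then -0.00191 (limma adjusted p = 0.988). In cells with a score above 0 the mean S scores were 0.0202 ± 0.00687 (SD, n = 4) in baseline and 0.00665 ± 0.00337 in CMS libraries.

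**Figure D5:**
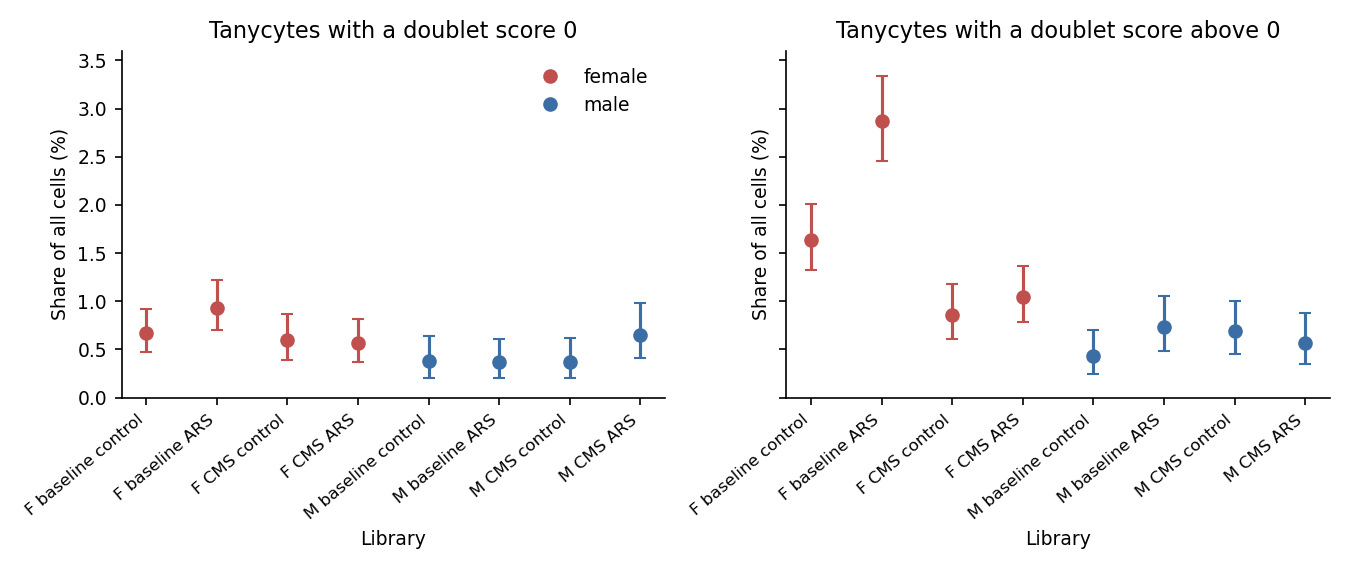
Tanycytes with a doublet score of 0 (left) and above 0 (right) as a percent of all cells of each library, with 95% exact intervals of counting error. The female baseline libraries stand out at the right (1.64% and 2.87%), while at the left all 8 libraries lie between 0.365% and 0.935%.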

How the data were processed

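Cells of the mouse PVN were dissociated with papain and made into 10x Genomics 3' v2 libraries, per the labels' protocols. Cell Ranger 3.0.2 and 3.1.0, Seurat 3.1.3 and the mm10 build are named in the submitters' processing notes. The authors deposited 1 line per cell, with UMIs and detected genes as raw counts. The mitochondrial share was deposited as a fraction, and times the UMIs of its cell it was whole within 1e-06 in every cell; it is given in percent here. Columns for doublets, S and G2/M hold scores deposited by the authors. Their tools and any filters are not given in sources used here, and doublets were not removed further. All 35672 cells were joined to a library by their experiment, condition and sex, with the experiment named for acute stress taken as the baseline cohort.

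Types are the authors' annotation; Tanycytes and the 2 types set beside them, Ependymal cells and Astrocytes, are named by rule, other types only as counts or ranks, and OPC was named after its value was seen. The members and lists were chosen with earlier results of these data known. The split by doublet score was made after the data were seen.

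Cell numbers were tested with edgeR 4.0.16 in R 4.3.3 (quasi-likelihood, library size set to its number of cells, types with at least 80 cells); its spread is largely pooled over types. DESeq2 1.42.0 and limma were alternatives. Library medians or means were compared between types by exact two-sided sign-flip permutation over 8 libraries, and between groups with limma 3.58.1 over the 16 types that had 10 or more cells in every library. Adjustment followed Benjamini and Hochberg, with a threshold of 0.05. Intervals of single libraries and of pairs of libraries use scipy 1.17.1 and cover counting error only. The intervals of the fitted folds for sex and stress come from the edgeR fit and include its estimate of the spread between libraries. Libraries were the replicates. The scripts were tested on simulated data.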

Additional observations from a re-analysis of the deposited data

Results flagged for a closer look

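The Tanycyte share and the ratio to Ependymal cells lay in opposite directions between cohorts in the sexes, although 3 of the 4 male values have intervals of counting error that include no difference. For the share, the log2 ratio of CMS to baseline was -0.66 and -1.25 in the female pairs and 0.38 and 0.15 in the male pairs, and the mean difference between the sexes was -1.22; the edgeR interaction fitted to it is given above and did not pass. For the ratio to Ependymal cells, the female pairs were at -0.74 and -0.94 and the male pairs at 1.02 and 0.11, a mean difference of -1.41 that was not tested by permutation.

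Of 48 groups of library values checked for a library far from the others, 2 held one, where chance gives about 1 in 20. The median of 2861 UMIs of Tanycytes in the male baseline control library lay far below the other 3 baseline libraries. The G2/M score of Tanycytes minus that of Astrocytes was 0.0444 in the female CMS control library, far above the other 7.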

How the results depend on the processing

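Across 38 results and 446 alternatives, 390 kept direction and side of the threshold, 31 turned in sign, 17 fell short and 8 passed; 20 results kept both under every alternative run. Of the 12 comparisons with Ependymal cells or Astrocytes, 10 did. Part of this tally was fixed in advance and is no measure of stability. The permutation tests of the ratio allow no p under 0.125 with 4 pairs or 0.25 with 3, so they could not pass. For comparisons of the same sign in 8 of 8 libraries, the exact permutation p without 1 library could only be 0.0156. The labels number no replicates across groups. Libraries matched on the other terms were paired in the tests of the ratio, and as a block they left the sex call on the share (edgeR adjusted p = 0.0113). Adjusted p for that result ran from 4.46e-05 to 0.234. The causes of these changes were not tested.

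The log2 sex difference in share fell short with TMM (1.02), DESeq2 (0.95), clusters in place of types (1.05), a doublet score of at most 1 (0.60) and no covariates (1.13), and ran from 0.81 to 1.27 without single libraries. Among non-neuronal cells the sex by cohort term, asked because earlier results of these data had shown it, passed (-1.40). The sex by exposure term turned to -0.19 at a doublet score of at most 1 and ran from -0.48 to 0.67 without single libraries, the cohort by exposure term from -0.86 to 0.18, the stress difference from 0.11 to 0.61, the cohort difference from -0.58 to -0.16 and the sex by cohort term from -1.45 to -0.98. For the ratio to Ependymal cells, the sex difference passed with edgeR (1.10), which took the Ependymal number as known. The cohort difference in this ratio turned to 0.29 at a doublet score of at most 1 and ran from -0.52 to 0.13 without single libraries. Without 2 libraries, r turned to -0.56 for the Ependymal and 0.15 for the Astrocyte share.

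Against Ependymal cells, log2 UMIs passed at a doublet score of at most 1 (-0.44) and with the larger Ependymal cluster (-0.22). The cut at 1 kept only Tanycytes with a score of 0, but 1121 Ependymal cells, of which 445 had a score of 0. The score rose with UMIs over cells in both types (Spearman's rho 0.41 and 0.51), so the cut is unlike in depth. The log2 UMI difference ran from -0.18 to -0.11 without single libraries, passing without the female baseline ARS library. The doublet score fell short with medians (0.717). At a doublet score of at most 1, which leaves 211 Tanycytes, log2 UMIs turned for stress (-0.20), sex (-0.16) and cohort (0.048), the mitochondrial percent for stress (-0.0968) and cohort (0.0183), and G2/M for cohort (0.00154), and the S cohort difference fell short (-0.00191). Relative to Ependymal cells, the mitochondrial cohort difference passed (-0.733), in a fit that called 9 of 15 types. In the same setting S fell short (-0.00818) and G2/M turned (0.000331). Without single libraries, log2 UMIs ran from -0.0897 to 0.17 for stress, from -0.042 to 0.21 for sex and from -0.36 to -0.14 for cohort; S from -0.0109 to -0.00853 for cohort; and G2/M from -0.00743 to 0.00265 for stress, from -0.00619 to 0.00389 for cohort and from 0.0054 to 0.0137 for sex.

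Male libraries held 30 to 43 Tanycytes, which limits the precision of their values.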

Other observations

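The mitochondrial share of deep and shallow Tanycytes was compared within each library after the pattern over all cells had been seen. Tanycytes of at least 4000 UMIs had a higher mitochondrial median than those of 2000 to 4000 UMIs in 6 of 8 libraries. The difference was largest in the male CMS ARS library, at 2.32 points from 10 deep cells. It was 1.63 points in the female baseline ARS and 1.18 points in the female baseline control library. In the female CMS control and male CMS control libraries it was -0.19 and -0.22 points. The mean over libraries was 0.683 points (SD 0.932; exact permutation p = 0.0938), against -0.0803 points (SD 0.369) in Ependymal cells. The difference between the types was 0.763 points (SD 0.863), higher for Tanycytes in 7 of 8 libraries, with an exact sign-flip permutation p of 0.0234 and 0.0703 after adjustment over 3 tests, which did not pass.

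The Tanycyte share at a rising floor of depth kept the female baseline ARS library apart. Among cells of at least 4000 UMIs, Tanycytes made up 9.77% of that library and 5.17% of the female baseline control library. In the female CMS libraries they made up 2.13% and 3.58%, and in the 4 male libraries 1.01% to 1.77%. At that floor there were 0.715 Tanycytes per Ependymal cell in the female baseline ARS library.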
